A study of Mus musculus with 383 samples.

Results

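The transcription factor genes Tbx20, Tbx3, Tbx2, Phox2a, Isl1, Nkx6-1 and Gata3, which are known from the development of visceral motor neurons, were followed through single nuclei of the mouse vagal motor nucleus. They were taken by name from the count table and make up 7 of its 29779 genes. Tbx20 was found in 88.9% of retained nuclei, while the other 6 genes were each found in a part of them, from 56.3% for Tbx3 down to 8.54% for Gata3. Tbx3 and Nkx6-1 were each found more often in nuclei that held Tbx2 than in nuclei that did not. Tbx20, Tbx3 and Nkx6-1 were low or undetected in a small class of nuclei with somatic motor markers, whereas Isl1 was found in 52.2% of that class.

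All nuclei came from 1 group: male Chat-IRES-Cre mice on a C57BL/6 background, whose cholinergic cells make Cre recombinase, injected into the dorsal motor nucleus of the vagus with 100 nL of AAV9-DIO-H2b-mCherry. This virus marks nuclei red only where Cre is present, so every library shares the Cre allele and the virus, and there is no uninjected group. The mice were 10 weeks old at injection and tissue was taken 16 days later, was pooled, and gave nuclei sorted singly into wells and copied with Smart-seq2, which reads transcripts along their length. The design text of the series gives an age of 12 weeks. The labels name no animal, so the series counts as 1 sample, nuclei stand for no replicate animals, and values are described without tests.

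Motor neurons of the hindbrain arise as somatic neurons, which drive muscle, and as branchial and visceral neurons. Visceral neurons of the dorsal vagal nucleus send axons to parasympathetic ganglia of the gut, heart and airways. T-box, LIM-homeodomain, NK-homeodomain and GATA factors act during their specification and migration.

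Read counts of 383 nuclei were available, with a median of 1293019 reads each. The 316 nuclei (82.5%) with at least 1000 genes detected were retained, and these held 1590 to 4699420 reads. One read sufficed to call a gene detected, and a level is a gene's reads per 1000000 reads of all genes (RPM), summed over nuclei. Intervals are exact 95% intervals and cover counting error only, because libraries were amplified with no molecular identifiers and several reads can stem from 1 molecule.

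Tbx20 encodes a T-box factor that is needed for the migration of hindbrain motor neurons. Its gene lies on chromosome 9 from 24718138 to 24774303 on the minus strand of GRCm38. Tbx20 was detected in 281 of 316 nuclei (88.9%, interval 84.9 to 92.2) at 223 RPM (222 to 225). Among nuclei with a read, its level ran from 0.535 through a median of 201 to 1064 RPM. Few detections of Tbx20 were marginal, as 5.69% of them rested on fewer than 5 reads.

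Tbx3 and Tbx2 encode a closely related pair of T-box repressors. Tbx3 lies on chromosome 5 from 119670669 to 119684724 on the plus strand, and Tbx2 on chromosome 11 from 85832551 to 85841948, also on the plus strand. Tbx3 was detected in 178 nuclei (56.3%, 50.7 to 61.9) at 19.3 RPM, and Tbx2 in 68 nuclei (21.5%, 17.1 to 26.5) at 5.04 RPM. In nuclei with a read, Tbx3 ran from 0.213 through 26.0 to 216 RPM and Tbx2 from 0.780 through 14.9 to 117 RPM. The intervals of their shares lay apart, with Tbx3 the more widely found. No stretch of 31 bases was shared between the annotated transcripts of Tbx2 and Tbx3, or of either with Tbx20.

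Tbx3 shares 115 bases of exon with Tbx3os1, a transcript on the opposite strand, and the use of strand in counting was not given in the sources used here. Tbx3os1 was detected in 63.3% of nuclei, in 77.5% of those with Tbx3 and in 44.9% of those without. Reads of the shared stretch cannot be assigned to either gene, so the Tbx3 values carry that limit.

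Nkx6-1 encodes a homeodomain repressor of ventral progenitors that is also known from hindbrain motor neurons after they leave the cell cycle. It lies on chromosome 5 from 101658139 to 101664996 on the minus strand. Nkx6-1 was detected in 145 nuclei (45.9%, 40.3 to 51.6) at 7.30 RPM, and ran from 0.496 through 14.7 to 98.6 RPM in nuclei with a read. Its relative Nkx6-2 was detected in 21.5% of nuclei. Per kilobase of exon, the scale used to compare levels between genes, Nkx6-1 stood at 2.33 and Nkx6-2 at 2.31 RPM per kilobase. This scale holds for reads of exons, and whether reads of introns were counted was not given.

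Isl1 encodes a LIM-homeodomain factor that appears in motor neurons as they are born and is shared by somatic and visceral types. It lies on chromosome 13 from 116298281 to 116309689 on the minus strand. Isl1 was detected in 94 nuclei (29.7%, 24.8 to 35.1) at 13.0 RPM, and ran from 0.601 through 30.0 to 203 RPM in nuclei with a read. A single nucleus gave 9.02% of all Isl1 reads. Its paralog Isl2, known from somatic motor neurons, was detected in 4.75% of nuclei at 0.504 RPM per kilobase, against 3.28 for Isl1.

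Phox2a encodes a homeodomain factor of visceral and noradrenergic neurons. It lies on chromosome 7 from 101818313 to 101822726 on the plus strand. Phox2a was detected in 72 nuclei (22.8%, 18.3 to 27.8) at 2.95 RPM, and ran from 0.300 through 10.1 to 67.6 RPM in nuclei with a read. Many Phox2a detections were marginal, with 33.3% of them resting on fewer than 5 reads. Its exons share 95 bases with Inppl1 on the opposite strand, a gene detected in 59.7% of nuclei with Phox2a and 43.9% of those without.

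Gata3 encodes a zinc-finger factor of sympathetic and serotonergic neurons that is also known from hindbrain efferent neurons. It lies on chromosome 2 from 9857078 to 9890034 on the minus strand. Gata3 was detected in 27 nuclei (8.54%, 5.71 to 12.2) at 0.886 RPM, and ran from 0.624 through 7.41 to 84.0 RPM in nuclei with a read. It was the least found of the 7 genes, and 10 nuclei gave 79.0% of its reads. Scaled by size factors in place of total reads, its level was 3.48, more than 1.5 times the value by total reads. Its paralog Gata2 was detected in 1.27% of nuclei. The exons of Gata3 share 155 bases with Gm13256 on the opposite strand and 77 with 9230102O04Rik on the same strand. Gm13256 was detected in 0.633% of nuclei, and 9230102O04Rik was not among the counted genes.

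**Figure D1:**
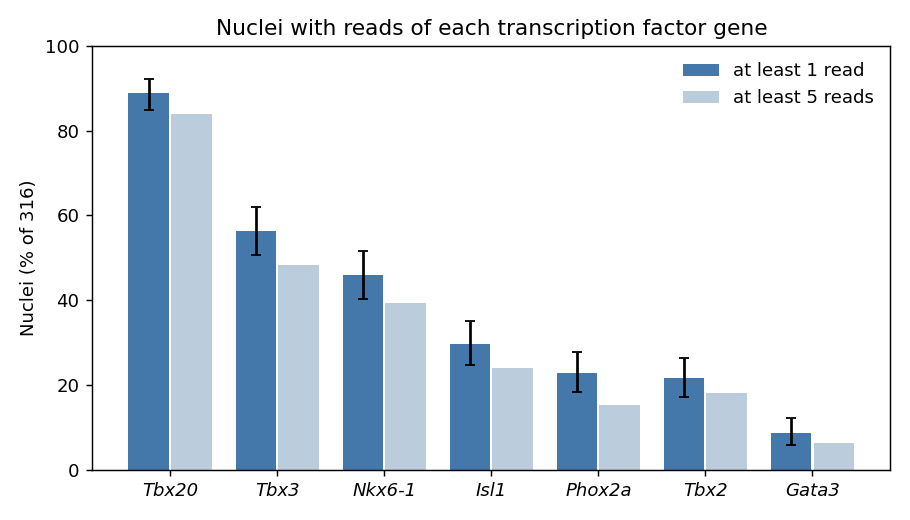
Share of the 316 retained nuclei, in percent, with at least 1 read and with at least 5 reads of each gene; error bars are exact 95% intervals of the share with at least 1 read. Tbx20 stands apart at 88.9%, Tbx3 and Nkx6-1 follow at 56.3% and 45.9%, Isl1, Phox2a and Tbx2 lie between 21.5% and 29.7%, and Gata3 is lowest at 8.54%.

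In order of share, the genes ran Tbx20, Tbx3, Nkx6-1, Isl1, Phox2a, Tbx2 and Gata3. Of neighbours in this order, Tbx3 and Nkx6-1 had overlapping intervals, as did Isl1 with Phox2a and Phox2a with Tbx2. Over all genes of the table the median share was 22.8%, so Phox2a and Tbx2 lay near the middle of the table and Tbx20 was more widely found than 86.2% of genes. Per kilobase of exon the order of the levels was Tbx20 at 18.6 RPM per kilobase, then Isl1 at 3.28, Tbx3 at 2.92, Nkx6-1 at 2.33, Phox2a at 1.45, Tbx2 at 1.39 and Gata3 at 0.223. On this scale Isl1 ranked higher by level than by share. If reads of introns were counted, exon length does not scale them evenly. Tbx20 spans 56166 bases with 11997 of exon, and Phox2a 4414 with 2035. The order of levels carries that limit.

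The nucleus numbers in the labels were also taken in blocks of 96, the number of wells on a plate, although the labels do not tie numbers to plates. Across these blocks Tbx20 was found in 85.4 to 91.9% of nuclei, Tbx3 in 51.2 to 61.3%, and Nkx6-1 in 41.3 to 48.6%. Isl1 ran from 27.5 to 34.1%, Phox2a from 16.3 to 30.0%, Tbx2 from 17.1 to 28.8% and Gata3 from 6.10 to 16.2%. In every block Tbx20 was the most found and Gata3 the least found of the 7 genes.

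RefSeq sequences upstream of the gene start were matched on GRCm38.p6 for Tbx20, Nkx6-1, Isl1, Phox2a and Gata3. Tbx20, Phox2a and Isl1 are shown because Tbx20 was lower and Phox2a undetected in nuclei with somatic motor markers and Isl1 was not lower. Each line gives the 250 bases before the RefSeq start, 5′ to 3′, with CG dinucleotides in capitals, at chr9:24774304-24774553 on the minus strand for Tbx20, chr7:101818063-101818312 on the plus strand for Phox2a and chr13:116309689-116309938 on the minus strand for Isl1.
Tbx20: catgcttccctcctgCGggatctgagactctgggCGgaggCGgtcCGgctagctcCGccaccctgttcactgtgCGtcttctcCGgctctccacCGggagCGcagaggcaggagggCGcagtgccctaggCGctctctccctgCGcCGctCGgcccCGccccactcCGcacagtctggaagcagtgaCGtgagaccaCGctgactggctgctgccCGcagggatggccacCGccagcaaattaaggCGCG
Phox2a: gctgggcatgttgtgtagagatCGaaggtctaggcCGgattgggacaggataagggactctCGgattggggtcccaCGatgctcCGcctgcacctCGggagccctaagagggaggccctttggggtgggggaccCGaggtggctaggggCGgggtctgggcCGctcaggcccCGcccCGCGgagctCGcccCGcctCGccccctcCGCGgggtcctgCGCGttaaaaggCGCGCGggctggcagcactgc
Isl1: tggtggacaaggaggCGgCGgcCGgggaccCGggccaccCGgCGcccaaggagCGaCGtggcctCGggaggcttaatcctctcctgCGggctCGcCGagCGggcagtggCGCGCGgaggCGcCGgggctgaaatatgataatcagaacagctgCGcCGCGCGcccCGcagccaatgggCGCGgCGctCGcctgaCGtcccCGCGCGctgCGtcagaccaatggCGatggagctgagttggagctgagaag
These stretches hold 22, 22 and 33 CG dinucleotides. For Nkx6-1 and Gata3 the whole stretch lies inside the GENCODE gene span given above, so it is not upstream of the GENCODE start and is not shown. The Isl1 stretch overlaps its GENCODE span in its last base only. Over the 300 bases of the table, which run 50 bases past the start, the 5 matched genes hold 22 (Gata3) to 40 (Nkx6-1) CG dinucleotides, against a median of 7 over 32851 promoters, and their GC content is 67.3 to 71.3% against a median of 52.7%. All 5 are thus rich in CG for this table.

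In the same 300 bases, on both strands, TAATTA, a homeodomain core, was in none of the 5 promoters and in 5.29% of all promoters. GGTGTG, a T-box core, occurred once in Gata3 and in 19.0% of all promoters. AGATAA, the core for GATA factors, occurred once in Isl1 and in 11.2% of all promoters. CCAAT occurred 2 times each in Phox2a and Isl1 and in 37.4% of all promoters. A match describes the letters alone.

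To compare nuclei at equal depth, each was thinned at random to 500000 reads, which left out 21 of the 316. In the remaining 295 nuclei the shares were 88.8% for Tbx20, 53.6% for Tbx3, 43.7% for Nkx6-1, 28.8% for Isl1, 21.0% for Tbx2, 19.7% for Phox2a and 7.46% for Gata3. The order was the same as before thinning, apart from Tbx2 and Phox2a, whose intervals overlap. At this depth nuclei with a member also had more genes detected for each of the 7 genes, for example a median of 10497 against 10147 for Phox2a and 10625 against 9854.5 for Nkx6-1. The part of the number of detected genes in the shares below was not tested.

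A median of 3 of the 7 genes was detected per nucleus. None was found in 15 nuclei (5.08%), 1 in 48, 2 in 84, 3 in 69, 4 in 48, 5 in 25 and 6 in 6 (2.03%). No nucleus had all 7, which allows a share of up to 1.24%. Of 128 possible combinations 49 were seen, and 17 of these were in a single nucleus. The commonest were Tbx20 alone (37 nuclei, 12.5%) and Tbx20 with Tbx3 (31 nuclei, 10.5%). Next came Tbx20 with Nkx6-1 (20), Tbx20 with Tbx3 and Nkx6-1 (19), Tbx20 with Tbx3, Tbx2 and Nkx6-1 (18) and Tbx20 with Isl1 (16). No single combination of detected genes was therefore shared by most nuclei. These combinations depend on detection, as the median was 2 genes at 250000 reads or with at least 5 reads. Whether they differ from independent detection of the genes was not tested.

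Nuclei were then grouped by clusters built without these 7 genes or any other listed transcription factor, and the clusters were named from marker genes. Of the 316 nuclei 293 (92.7%) were visceral motor-like and 23 (7.28%) somatic motor-like. At equal depth the mean share over 5 visceral markers, which include Nos1, Gal and Chrna3, was 91.9% in the first class and 17.4% in the second, and over 6 somatic markers 6.74% and 39.1%. Mean shares over 5 cholinergic markers were 96.7% and 83.5%, so both classes carried the cholinergic label. Median depth was 1437262 and 1633952 reads.

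Tbx20, Tbx3 and Nkx6-1 were lower in the somatic motor-like nuclei, Phox2a was undetected there, and Isl1 had its higher share and level in them. Counted as past the limit were shares at least 40 percentage points apart with intervals that did not overlap. By this rule 3 of the 7 genes were lower in the somatic motor-like class and none was higher. Of 13858 genes found in 10 to 90% of nuclei, a range that leaves out Gata3, 0.88% were lower and 0.628% were higher. The members were chosen with earlier results of these data known, and the classes were named from visceral and somatic markers. Setting the members beside all genes is therefore a description and not a test.

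Of 23 somatic motor-like nuclei 7 held Tbx20 (30.4%, 13.2 to 52.9), against 255 of 272 visceral ones (93.8%, 90.2 to 96.3). Its summed level over all nuclei of a class, without thinning, was 1.56 RPM against 243 RPM, a 155-fold difference resting on 59 reads in the somatic class. Before thinning, the highest somatic motor-like nucleus reached 16.4 RPM and the visceral motor-like nuclei had a median of 177 RPM and a highest value of 1064 RPM. The few reads of Tbx20 in the somatic class thus lay far under the usual visceral level.

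Tbx3 had no read in any of the 23 somatic motor-like nuclei, which allows a share of up to 14.8%, while 58.1% (52.0 to 64.0) of the visceral class held it. Its level in the visceral class was 264 times a floor of 3 reads over the somatic class. This floor is 0.0795 RPM, while the interval for 0 reads in the somatic class reaches 0.0977 RPM, so such a multiple is not a lower bound. Nkx6-1 was detected in 0 of 23 and in 47.4% (41.4 to 53.5), and its level in the visceral class was 99.9 times the same floor. Both genes had no read at all in the somatic class, also before thinning.

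Phox2a was likewise detected in 0 of 23 somatic motor-like nuclei, against 21.3% (16.6 to 26.7) of visceral ones. Its level in the visceral class was 40.3 times the floor of 3 reads over the somatic class. Its intervals lay apart, but the shares were less than 40 points apart. For Tbx2 the count was 1 of 23 nuclei (4.35%, 0.110 to 21.9) against 22.4% (17.6 to 27.9), and these intervals overlap. With 23 nuclei, a gene of such a share cannot be placed more closely.

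Isl1 ran the other way, with 12 of 23 somatic motor-like nuclei (52.2%, 30.6 to 73.2) against 26.8% (21.7 to 32.5) of visceral ones. Its level was 34.2 RPM in the somatic and 11.2 RPM in the visceral class, and single nuclei reached 166 and 203 RPM. These intervals of the share overlap, so Isl1 did not pass the limit. Gata3 was detected in 2 of 23 nuclei (8.70%) and in 7.35%, at 0.583 and 0.912 RPM, and its intervals overlap as well. The median nucleus held 3 of the 7 genes in the visceral class and 1 in the somatic class.

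**Figure D2:**
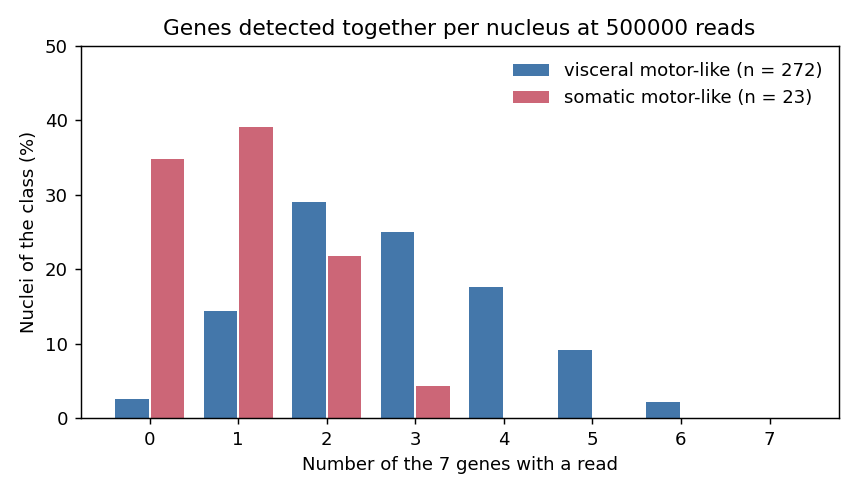
Number of the 7 genes detected per nucleus at 500000 reads (horizontal axis) against the percent of nuclei of each class (vertical axis, bars), for 272 visceral and 23 somatic motor-like nuclei. Visceral nuclei peak at 2 genes (29.0%) and reach 6, whereas somatic nuclei peak at 1 gene (39.1%) and do not exceed 3.

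**Figure D3:**
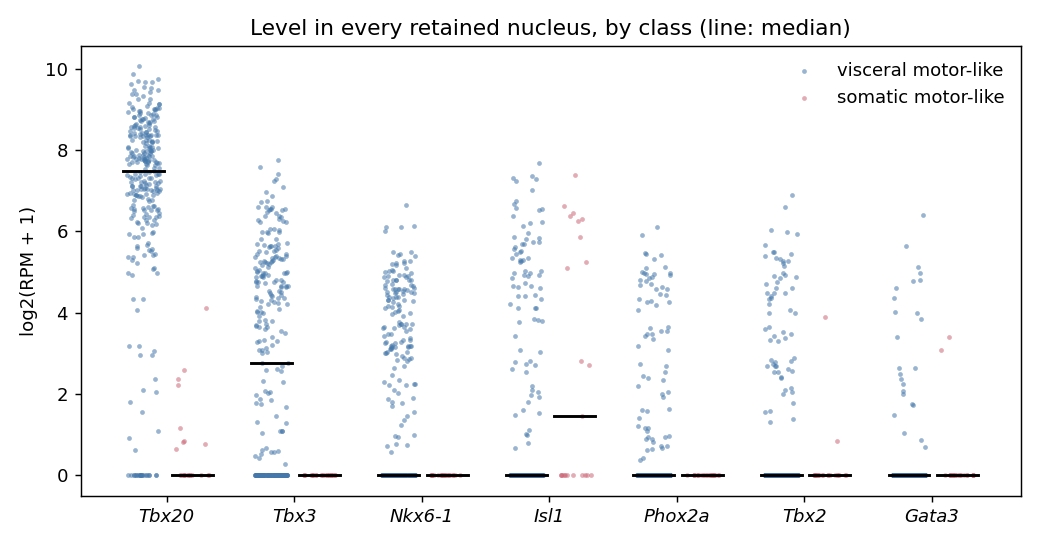
Level of each gene in every retained nucleus, as log2(RPM + 1), for 293 visceral and 23 somatic motor-like nuclei before thinning; each point is a nucleus and each line a class median. Visceral nuclei have a median Tbx20 level of 177 RPM, no somatic nucleus exceeds 16.4 RPM, and Tbx3, Nkx6-1 and Phox2a have no somatic reads.

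Co-detection was described by splitting nuclei on 1 gene and comparing the share with another, for 42 ordered pairs of the 7 genes. A pair was past the limit where the shares were at least 20 percentage points apart with intervals that did not overlap. Both directions of a gene pair rest on the same counts, so they are not separate results. Over all 295 nuclei 10 ordered pairs passed the limit, all of them higher together. They were Tbx3, Tbx2 and Nkx6-1 in the split by Tbx20, Tbx2 and Nkx6-1 in the split by Tbx3, Tbx3 and Nkx6-1 in the split by Tbx2, Tbx3 and Tbx2 in the split by Nkx6-1, and Tbx3 in the split by Phox2a. By the same rule 2.88% of genes were higher in nuclei with Tbx20, 1.07% with Tbx3, 2.06% with Tbx2, 1.47% with Nkx6-1, 1.19% with Phox2a, 0.484% with Isl1 and 2.35% with Gata3. Lower by this rule were 1.14% of genes with Tbx20, 0.115% with Tbx3, 0.144% with Tbx2, 0.00722% with Nkx6-1, 0.173% with Phox2a, 0.0433% with Isl1 and 0.325% with Gata3. With at least 5 reads to call a gene detected, 3 of the 10 pairs passed: Tbx3 in the split by Tbx20, and Tbx3 and Nkx6-1 in the split by Tbx2. Tbx2 in the splits by Tbx3 and by Nkx6-1 did not pass at 5 reads. Thinned to 250000 reads, 7 pairs passed, and Tbx2 in the split by Nkx6-1 was not among them. In the split by Tbx2 the vascular marker Flt1 passed the limit as well, and the mean share over 4 vascular markers was 37.1% against 27.1%. Its part in these pairs was not tested.

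The somatic motor-like nuclei lack several of these genes, so the pairs were taken again within the 272 visceral motor-like nuclei, where 5 of the 10 remained. There Tbx2 was found in 31.0% (23.9 to 38.8) of nuclei with Tbx3 and 10.5% (5.56 to 17.7) of those without. In the split by Tbx2, Tbx3 was found in 80.3% (68.2 to 89.4) against 51.7% (44.7 to 58.6), and Nkx6-1 in 70.5% (57.4 to 81.5) against 40.8% (34.1 to 47.7). Nkx6-1 nuclei held Tbx2 in 33.3% (25.3 to 42.2) against 12.6% (7.63 to 19.2). These are Tbx3 with Tbx2 and Tbx2 with Nkx6-1, each seen from both sides. Tbx2 nuclei were thus mostly also Tbx3 and Nkx6-1 nuclei, while most nuclei with Tbx3 or Nkx6-1 had no Tbx2 read. Within this class 0.756% of genes were higher with Tbx3, 2.22% with Tbx2, 1.39% with Nkx6-1, 1.03% with Phox2a, 1.78% with Tbx20, 0.705% with Isl1 and 2.35% with Gata3. Lower were 0.937% with Tbx20, 0.16% with Tbx3 and with Phox2a, 0.131% with Tbx2, 0.0799% with Isl1, 0.247% with Gata3 and 0.0% with Nkx6-1.

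The fifth pair was Tbx3 in the split by Phox2a, at 77.6% (64.7 to 87.5) against 52.8% (45.9 to 59.6). The reverse, Phox2a in nuclei with and without Tbx3, did not pass the limit. No marker of another cell type passed the limit within this class in the splits by Tbx3, Tbx2, Nkx6-1, Phox2a or Isl1, although the mean vascular share with and without Tbx2 was still 36.9% and 27.3%. Without cluster 5 of the visceral class, which had the lowest mean share over the cholinergic markers, 4 of the 5 pairs remained. Tbx2 in the split by Nkx6-1 fell out. This subset without cluster 5 was chosen after the data were seen. Cluster 5 also had the highest mean shares over the astrocyte (48.3%), microglial (34.2%) and vascular (50.8%) markers. Its mean share over the visceral markers was the lowest (76.0%), and its median of genes detected the highest (11619.5). The part of these traits in the pairs was not tested.

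Taken as a trio in visceral motor-like nuclei, Tbx3, Tbx2 and Nkx6-1 were all detected in 37 nuclei (13.6%, 9.76 to 18.3). Exactly 2 of them were found in 67 nuclei (24.6%), 1 in 103 (37.9%) and none in 65 (23.9%). Among somatic motor-like nuclei 22 of 23 had none of the 3. All 3 together were thus found in a minority of visceral nuclei.

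Isl1 stood outside these pairs, as none of its 12 ordered pairs passed the limit in either set of nuclei. In visceral motor-like nuclei with Isl1, Phox2a was found in 32.9% (22.3 to 44.9) against 17.1% (12.1 to 23.0) without, and Tbx2 in 19.2% against 23.6%. Gata3 was found with Isl1 in 1 visceral motor-like nucleus: Isl1 was detected in 5.00% (0.127 to 24.9) of 20 nuclei with Gata3 and in 28.6% (23.1 to 34.6) of the others, with intervals that overlap. The rarer genes leave wide intervals here.

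Only 17 visceral motor-like nuclei had no Tbx20 read at equal depth. Tbx3 was found in 35.3% of them against 59.6% of the nuclei with Tbx20, Nkx6-1 in 35.3% against 48.2% and Isl1 in 5.88% against 28.2%, and none of these passed the limit. Tbx2 was found in 5.88% (0.149 to 28.7) against 23.5% (18.5 to 29.2). With 17 nuclei the intervals are wide, and the Tbx3 difference of 24.3 points failed the limit only because its intervals overlap. Chat, the acetylcholine-synthesising enzyme, was found in 94.1% of these 17 nuclei. Most of the 17 came from clusters 5 and 7 of the visceral class, where 24 of 30 and 13 of 19 nuclei held Tbx20.

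**Figure D4:**
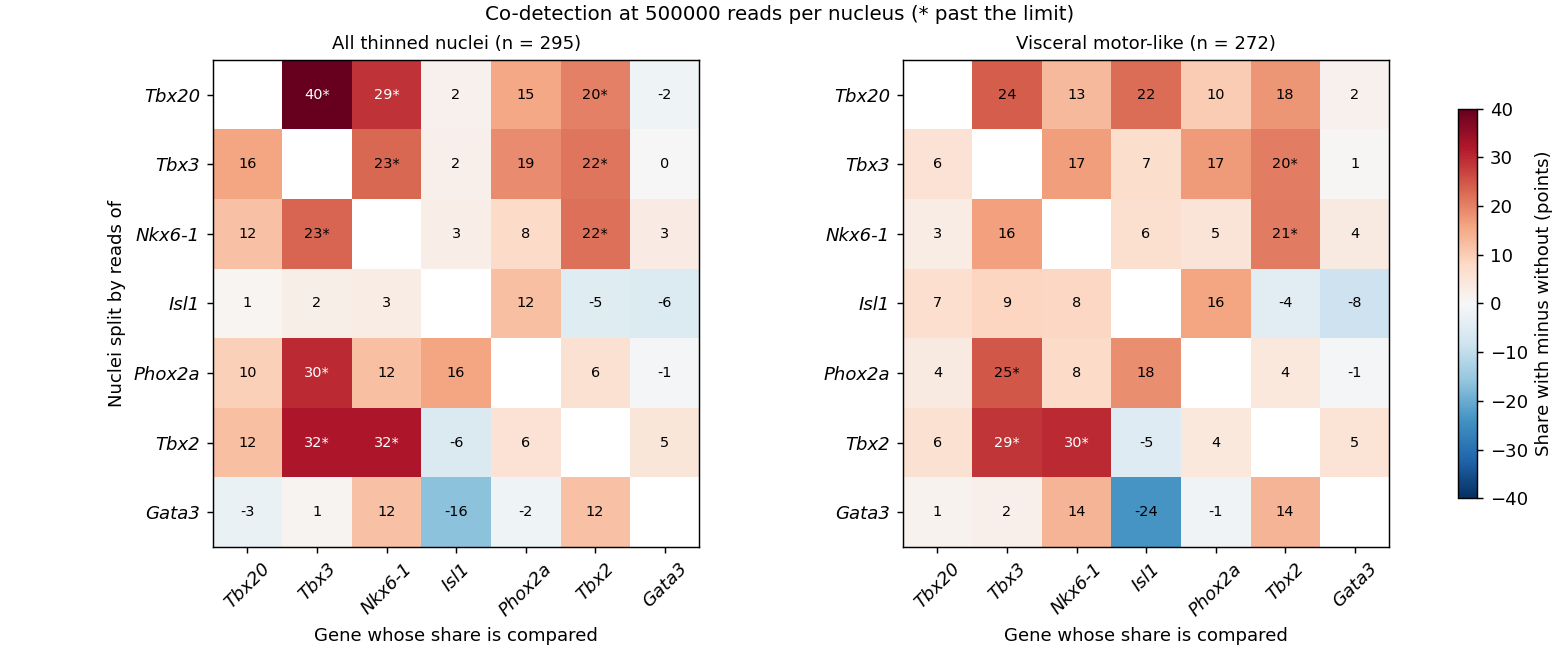
Difference in share, in percentage points, of the gene in each column between nuclei with and without the gene in each row, at 500000 reads, for all 295 nuclei (left) and 272 visceral motor-like nuclei (right). Asterisks mark differences of at least 20 points with separate intervals, 10 on the left and 5 on the right, all of them positive.

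Visceral motor-like nuclei were clustered again without any listed gene, giving 10 clusters of 12 to 43 nuclei, numbered by size. Tbx20 was spread over all of them, while the shares of Tbx3, Nkx6-1, Isl1 and Tbx2 in their top and bottom clusters were 40 points or more apart with separate intervals. These are 4 of the 7 genes, and 36.5% of 13761 genes did the same, so differing between clusters is common here. The values serve to show where each gene was found.

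Tbx20 was detected in every nucleus of clusters 1, 2, 4, 6 and 9, which hold 43, 35, 33, 26 and 17 nuclei at equal depth, and in 68.4% (43.4 to 87.4) of cluster 7. Its summed level was 399 RPM in cluster 2 and 340 RPM in cluster 1, against 61.5 RPM in cluster 7, 73.7 RPM in cluster 10 and 86.1 RPM in cluster 5.

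The share of Tbx3 ran from 82.9% (66.4 to 93.4) in cluster 2 and 82.4% in cluster 9 down to 5.26% (0.133 to 26.0) in cluster 7. Before thinning, 18.2% of cluster 7 had a Tbx3 read. Tbx2 was highest in cluster 9 at 47.1% (23.0 to 72.2) and undetected in 19 nuclei of cluster 7, which allows up to 17.6%. At coarser clusterings with 7 clusters, Tbx2 no longer passed the limit. Cluster 7 was thus lowest for both of these related T-box genes.

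Nkx6-1 was highest in cluster 6 at 76.9% (56.4 to 91.0) and lowest in cluster 10 at 8.33% (0.211 to 38.5), with 15.0% in cluster 8. Cluster 7, poor in Tbx3 and Tbx2, held Nkx6-1 in 47.4% of nuclei, the same as the rest of the class. Its lowest cluster thus differed from cluster 7, the lowest for Tbx3 and Tbx2.

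Clusters 4, 2 and 1 held Isl1 most often, at 51.5% (33.5 to 69.2), 48.6% and 46.5%, and none of the 19 nuclei of cluster 7 did. It was also low in cluster 3, with 1 of 37 nuclei (2.70%, 0.0684 to 14.2), a cluster in which Tbx20 (94.6%) and Tbx3 (56.8%) had shares near those of the class. Phox2a was highest in cluster 6 at 38.5% and cluster 2 at 37.1%, and was found in 1 of 30 nuclei of cluster 5 and 0 of 12 of cluster 10. Gata3 had no read in clusters 1, 2, 7 and 9 at equal depth and did not exceed 16.7% elsewhere.

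Cluster 7 was also the one in which Cck, which encodes the peptide cholecystokinin, was found most, in 14 of 19 nuclei (73.7%) against 3.16% of the other clusters. Npy2r, a neuropeptide Y receptor gene, was found in none of its nuclei against 64.0%. The median nucleus there held 1 of the 7 genes, against 4 in clusters 2 and 4. At equal depth cluster 7 also had fewer genes detected, with a median of 9414 against 10711 and 10804 in clusters 2 and 4, and the part of that in the count was not tested.

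**Figure D5:**
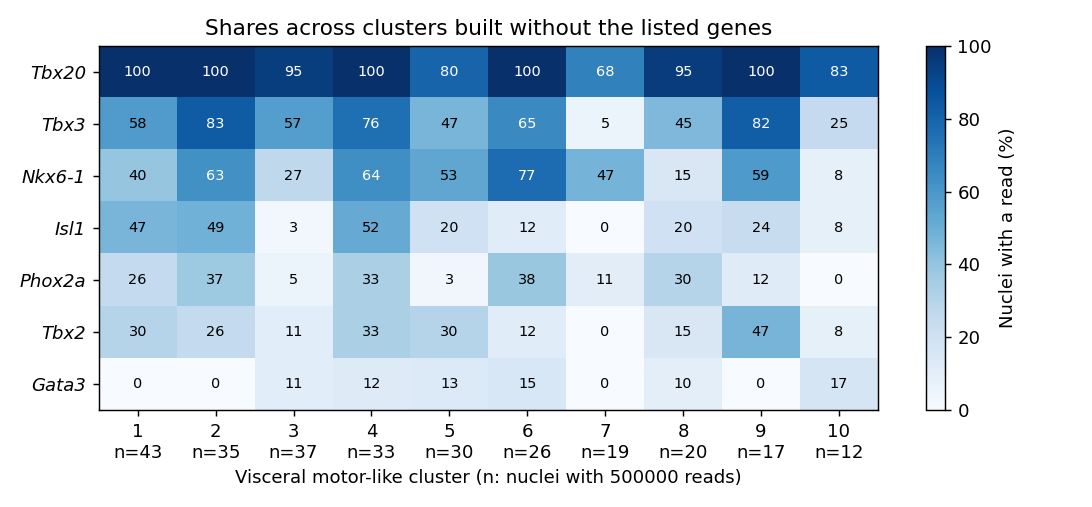
Share of nuclei with each of the 7 genes, in percent, in the 10 visceral motor-like clusters at 500000 reads. Tbx20 is high throughout, from 68.4 to 100%, while Tbx3 falls to 5.26% and Isl1 and Tbx2 to 0 in cluster 7, and Nkx6-1 falls to 8.33% in cluster 10.

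The relatives of the 7 genes were mostly sparse. Of 22 listed relatives, 11 were detected in fewer than 10% of the 316 nuclei, and the median was 8.86%. Mga, which encodes a large T-box protein, was an exception at 97.2%. The members' own median was 29.7%.

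Of 24 other motor neuron factors and cofactors, 10 were detected in at least 50% of nuclei. These were Ebf1, Foxp1, Onecut2, Ldb2, Lmo4, Zfpm2, Lmo3, Ldb1, Rreb1 and Zeb2, from 96.8% for Ebf1 and 97.2% for Foxp1 down to 50.9% for Zeb2. Ldb1 and Ldb2 encode cofactors that bind LIM-homeodomain factors such as Isl1. Between the classes 2 of the 24 passed the limit, both higher in somatic motor-like nuclei: Lhx4 (60.9% against 16.5%) and Lmo1 (52.2% against 10.3%). Over all genes tested, 0.628% were higher and 0.88% lower in that class. Lhx4 was also a somatic marker on the list used to describe the classes.

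Among 25 transmitter, peptide and receptor genes 12 were detected in at least 50% of nuclei: Chat, Slc5a7, Slc18a3, Nos1, Ret, Gal, Ddc, Slc18a2, Adcyap1, Chrna3, Chrnb4 and Npy2r. The splits by the 7 genes within visceral motor-like nuclei differed in how many of the 71 listed genes passed the 20-point limit. There were 6 each for Tbx3 and Tbx2, 4 for Tbx20, 2 each for Phox2a, Isl1 and Gata3 and none for Nkx6-1. Over all genes tested in this class, 2.35% were higher and 0.247% lower with Gata3, so its 2 of 71 lie near the background. The higher shares were 0.756% with Tbx3, 2.22% with Tbx2, 1.78% with Tbx20, 1.03% with Phox2a and 0.705% with Isl1. Of these, Calca with Tbx20, Cckar with Tbx3 and Dbh with Gata3 were lower, and all others were higher.

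Nuclei with Tbx3 more often had Cartpt, a satiety-related peptide gene (52.5%, 44.4 to 60.5, against 12.3%, 6.88 to 19.7). They also more often had Npy2r (75.3% against 37.7%), the nicotinic receptor subunit gene Chrnb4 (72.2% against 43.9%), the calcium-binding protein gene Calb2 (48.7% against 21.9%) and Lmo4 (90.5% against 68.4%). The cholecystokinin receptor gene Cckar was less frequent with Tbx3, at 22.2% (15.9 to 29.4) against 44.7% (35.4 to 54.3). In cluster 7 Cckar was found in all 19 nuclei, against 26.5% of the other clusters, and Tbx3 in 1 of the 19. The part of cluster 7 in this split was not tested.

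Tbx2 split the same receptor and peptide genes upward. Npy2r was found in 83.6% (71.9 to 91.8) of nuclei with Tbx2 against 52.6% (45.6 to 59.5), Chrnb4 in 82.0% against 54.0%, Calb2 in 63.9% against 29.9% and Cartpt in 54.1% against 30.3%. The cut-type homeobox genes Onecut3 (55.7% against 29.9%) and Onecut1 (42.6% against 19.9%) passed the limit in this split as well. Phox2a nuclei had Cartpt in 58.6% against 29.4% and Npy2r in 77.6% against 54.7%. Npy2r thus passed the limit with Tbx20, Tbx3, Tbx2 and Phox2a.

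In the split by Tbx20, Npy2r was found in 62.4% against 17.6% and the decarboxylase gene Ddc in 96.1% against 64.7%. Calca, which encodes CGRP, was lower with Tbx20, at 2.35% against 23.5%. The 17 nuclei without Tbx20 also had the somatic marker list at a mean share of 13.7% against 6.27%, and the visceral list at 80.0% against 92.7%. Csf1r, a microglial gene, was the marker of another cell type that was lower with Tbx20. The part of these markers in the Tbx20 split was not tested.

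Isl1 nuclei were marked by other genes, with Nkx6-2 in 43.8% (32.2 to 55.9) against 16.1% (11.3 to 21.9) and the opioid precursor gene Pdyn in 31.5% (21.1 to 43.4) against 7.54% (4.28 to 12.1). In the 20 nuclei with Gata3, Lhx4 was found in 50.0% (27.2 to 72.8) against 13.9% (9.87 to 18.8), and the dopamine beta-hydroxylase gene Dbh in none against 23.8%. The inhibitory marker Gad2 also passed the limit upward with Gata3, and the inhibitory list had a mean share of 26.3% against 11.1%. Other lists were higher as well, such as vascular (43.8% against 28.3%), astrocyte (31.3% against 20.8%) and glutamatergic (25.0% against 13.9%). The visceral list was lower (88.0% against 92.2%), as was the catecholaminergic list (48.0% against 53.0%). Over all 295 nuclei, those with Gata3 had a median of 10882.5 genes detected against 10186. The part of those markers and of the number of genes detected was not tested. Over all 295 nuclei further listed genes passed in the split by Tbx20. These were Adcyap1, Chrna3, Chrnb4, Gal and Nos1 upward, and Cck, Lmo1 and Zeb2 downward. Others passed in the splits by Tbx3 (Chrna3), Nkx6-1 (Chrna3 and Chrnb4) and Gata3 (Lmo3). None of them passed in the same split within the visceral class. Adcyap1, Chrna3, Gal and Nos1 were markers that named the classes, and only 17 of the 33 nuclei without Tbx20 were visceral motor-like. Over all genes tested, 2.88% were higher and 1.14% lower with Tbx20.

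The genes with the most similar pattern to each member were ranked by Spearman correlation of log-scaled reads over the 272 visceral motor-like nuclei and 17513 genes, with depth made equal. These coefficients are descriptions, and the nuclei share a pool of tissue. For Tbx20 the highest included Ush1c (0.57) and Hoxc4 (0.55), and the lowest Ephb1 (-0.58), Pcdh7 (-0.57) and Rasgrf1 (-0.53). For Tbx3 they were Syt10 (0.52), Adamts2 (0.51) and Igsf21 (0.50), with Pcdh9 (-0.51), Trpm3 (-0.48) and Kcnh7 (-0.43) at the other end. Tbx2 shared Adamts2 (0.44) with Tbx3, beside Met (0.49), a receptor tyrosine kinase gene, and Layn (0.45), and was opposite to Ryr3 (-0.41), Grm7 (-0.40) and Tenm2 (-0.38).

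The remaining members had weaker neighbours. Phox2a was nearest to Parm1 (0.35), Npy4r (0.34) and Rgs7bp (0.33) and farthest from Lrrc4c (-0.34), Lrmda (-0.30) and Pcdh7 (-0.30). Isl1 was nearest to Gm45768 (0.45), Zfp536 (0.41) and Prkcb (0.40) and among the farthest were Lrrc4c (-0.37) and Prr16 (-0.34). Nkx6-1 was nearest to Ywhag (0.37), mt-Nd5 (0.36) and mt-Nd6 (0.36) and among the farthest were Hs6st3 (-0.30) and Snhg14 (-0.29), and its own coefficient with the number of genes detected was 0.32. Gata3, at 7.35% of these nuclei, reached 0.35 with Gm2895 and Acsm2 and 0.33 with Gm20442, and -0.24, -0.23 and -0.22 with Klf13, Atxn2l and Bcas3, which is weak in counts this sparse. Between members the largest coefficient was 0.28, for Tbx3 with Tbx2. Next came Tbx20 with Phox2a (0.26), Tbx20 with Isl1 (0.24) and Tbx2 with Nkx6-1 (0.23). The lowest were Isl1 with Gata3 (-0.14), Tbx20 with Nkx6-1 (-0.13) and Tbx20 with Gata3 (-0.11). Tbx20 with Tbx2 stood at -0.06. Over all retained nuclei Tbx2 and Nkx6-1 had passed the co-detection limit upward in the split by Tbx20, so levels and detection differed there.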

How the data were processed

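Whole-number read counts per gene were deposited by the authors for single nuclei, not normalised. Per the submitters' processing notes the build was GRCm38 and the tools bcl2fastq, STAR, Picard, edgeR and Seurat 3, named without roles. Annotation, counting mode and strand use are not given in the sources used here. Nuclei with at least 1000 detected genes were kept, giving 1590 to 4699420 reads each. RPM was computed from summed reads, and shares with exact Clopper-Pearson and levels with exact Poisson 95% intervals. For shares between nuclei, counts were thinned to 500000 reads. Clusters (scanpy 1.11.5, leidenalg 0.10.2) used 2000 variable genes, 15 components, 10 neighbours and resolution 1. Those behind the classes left out the members, their relatives and the listed motor neuron factors and cofactors. Transmitter, peptide and receptor genes were not dropped from that clustering, and some of them were markers that named the classes. Clusters within the visceral class left out all listed genes. The lists of cell type markers were compared by mean share, and no doublet caller was run, as 1 nucleus was sorted per well. The rules were tested on simulated data. Gene models came from GENCODE M21 and promoters from RefSeq. Listed genes were named where found in at least 50% of nuclei, past the 20-point limit or as a paralog, and correlated genes as the 3 highest and 3 lowest. The members and lists were chosen with earlier results of these data known. Alternatives were the detection minimum, the gene minimum, thinning, scaling and clustering. Hand2 was not analysed here, and some genes that these rules name are not reported here.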

Additional observations from a re-analysis of the deposited data

How the results depend on the processing

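With at least 5 reads to call a gene detected, the shares were 83.9% for Tbx20, 48.4% for Tbx3, 39.2% for Nkx6-1, 24.1% for Isl1 and 15.2% for Phox2a, and 3 ordered pairs passed the limit. As the mean of each nucleus' RPM, the levels were 212 for Tbx20, 20.6 for Tbx3, 8.17 for Nkx6-1, 4.64 for Tbx2, 3.42 for Phox2a and 1.27 for Gata3. With size factors they were 173 for Tbx20, 17.8 for Tbx3, 6.99 for Nkx6-1, 3.77 for Tbx2 and 3.48 for Gata3, and these factors rested on 39 genes found in every nucleus. In visceral motor-like nuclei alone 5 pairs passed, and 4 without cluster 5, a subset added after the data were seen. The cause of these shifts was not tested. Other thresholds on genes per nucleus and clustering moved no value beyond its interval and no count by over 1.5 times. In every setting run no pair was lower. A limit of 10% mitochondrial reads removed no nucleus, as none exceeded 4.82%, so it could not move any value. With at least 5 reads Nkx6-1 left the 3 genes past the limit between the classes. The 23 somatic motor-like nuclei limit every share in that class. No paired analysis was possible because all nuclei form 1 group.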

Other observations

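The 67 nuclei left out by the filter had a median of 2328 reads. Tbx20 had a read in 2 of them and Isl1 in 1, and Tbx3, Tbx2, Phox2a, Nkx6-1 and Gata3 had none, which allows a share of up to 5.36%. None of these exceeded a floor of 3 nuclei.

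Some relatives of the 7 genes were found in many nuclei at low levels. Gata4, a GATA factor best known from the heart and gut, was detected in 47.5% (41.9 to 53.1) of the 316 nuclei at 4.35 RPM, above Gata3 in both. Tbx15, another T-box gene, was detected in 33.9% (28.7 to 39.4) at 4.92 RPM. At equal depth Gata4 was found in 30.9% of visceral and 43.5% of somatic motor-like nuclei, and Tbx15 in 27.2% and 34.8%. These genes were picked out after their values were seen. Tbx3os2, a transcript next to Tbx3, was detected in 21.3% of nuclei with Tbx3 and 2.17% of those without.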
